A study of Mus musculus with 6 samples.

Results

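The genes described here encode the machinery of mitosis and chromosome segregation. They are 45 genes chosen by name as mitotic cyclins, kinases, kinetochore proteins, condensin subunits, kinesin motors and cytokinesis proteins, and all 45 were found among the 24984 genes of the count table. Their levels were read in microglia, the brain's own macrophages, taken from lesions of the corpus callosum in male C57BL/6J mice aged 10 weeks. Every mouse received a stereotaxic injection of 2 µl of 1% lysolecithin (LPC), which destroys myelin at the site. The groups were LPC day 10 and LPC day 3, named by the days after injection, and each had 3 mice and 3 libraries. Uninjured or vehicle-injected tissue was not analysed here, so each value sets the later lesion against the earlier one. Live cells were sorted as CD11b positive, Ly6G and CD3 negative and CD45 low, a gate that selects by surface protein and holds dividing and resting cells alike.

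Library totals ran from 5890081 to 9021700 counts at day 10 and from 7005939 to 9212197 at day 3. The cDNA was amplified and no molecular identifiers are described, so intervals and limits drawn from counts cover counting error only. LPC day 10 replicate 3 was unlike the rest. Of the 10535 genes that passed the filter on low counts, it lacked any count for 15.4%, while the other 5 libraries lacked 0.551% to 5.37%, so results are also given without it. Mitochondrial ribosomal RNA took 9.32%, 32.9% and 14.5% of counts in the day 10 libraries and 27.1% to 31.8% in those of day 3. All 10 microglial markers were counted in every library, and their summed level was 15083, 15491 and 39883 CPM on day 10 and 24303, 24063 and 26051 CPM on day 3. CPM are counts scaled to library size, here with factors from the trimmed mean of M values (TMM). These factors differed between libraries. In LPC day 10 replicate 1, of 6633766 counts, 3 counts made 0.314 CPM. In LPC day 10 replicate 3, of 5890081 counts, they made 0.807 CPM. Much of the gap between the marker sums of these libraries therefore comes from the scaling. In bulk RNA, fewer dividing cells and less of a transcript per dividing cell cannot be told apart.

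A cell that enters mitosis activates the kinase Cdk1 through its B-type cyclins, condenses its chromosomes with condensin and topoisomerase, and attaches each of them to the spindle through a kinetochore. A checkpoint holds the cell until attachment is complete. The anaphase-promoting complex then marks cyclins and other proteins for destruction, and motors and anillin help to divide the cell. Most of these genes are transcribed in a burst late in the cycle and are nearly silent in resting cells, so their summed RNA is widely used as a readout of dividing cells. Microglia divide little in the healthy adult brain and multiply after demyelination.

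Mitotic genes were at their highest in LPC day 3 replicates 1 and 3, and at their lowest in LPC day 10 replicate 3. Summed over the 45 genes, the level was 474.1, 1399 and 138.2 CPM in replicates 1, 2 and 3 of LPC day 10, against 2592, 581.3 and 3003 CPM in replicates 1, 2 and 3 of LPC day 3. The groups overlapped, because LPC day 3 replicate 2 lay below LPC day 10 replicate 2. LPC day 10 replicate 1 held 4530 counts of these genes in 6633766, and LPC day 3 replicate 2 held 4084 in 7005939. Per library total, without TMM factors, LPC day 3 replicate 2 thus lay below LPC day 10 replicate 1 as well. The median gene stood at 2.93, 8.83 and 0.538 CPM on day 10 and at 25.4, 1.71 and 20.7 CPM on day 3. By that measure LPC day 3 replicate 2 lay below LPC day 10 replicates 1 and 2. Mki67 alone made up 25.9%, 36.1% and 9.53% of the sum at day 10 and 48.0%, 21.1% and 39.3% at day 3. Without Mki67 the sum was 351.3, 894.2 and 125.1 CPM on day 10 and 1349, 458.7 and 1823 CPM on day 3, which left the libraries in the same order.

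**Figure D1:**
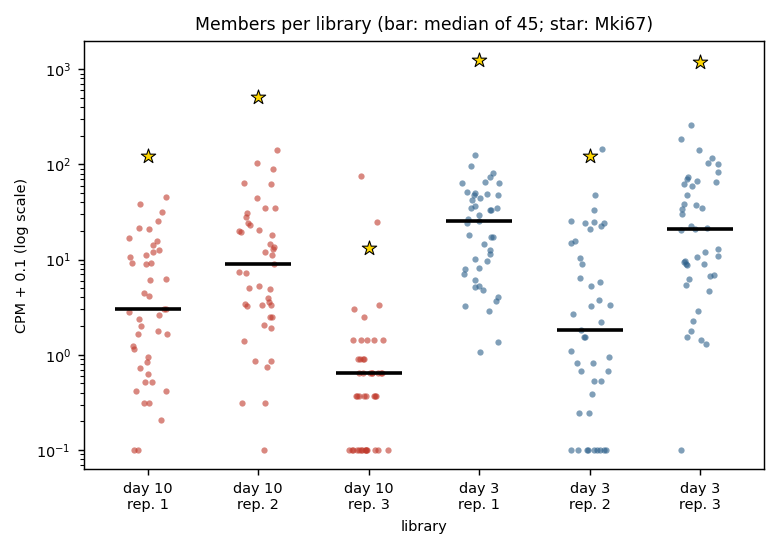
Level of the 45 mitotic genes in each library, in CPM plus 0.1 on a log axis, with LPC day 10 libraries in red and LPC day 3 libraries in blue. Each dot is a gene, the bar is the median of all 45 and the star is Mki67. The medians of LPC day 3 replicates 1 and 3 (25.4 and 20.7 CPM) lie above those of all other libraries, and that of LPC day 3 replicate 2 (1.71 CPM) lies between the day 10 libraries.

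Of the 45 genes, 39 had their highest level in a day 3 library and 36 had their lowest in a day 10 library. LPC day 3 replicate 1 held the highest level of 19 genes and LPC day 3 replicate 3 that of 18. LPC day 10 replicate 3 held the lowest level of 30. No such counts over all genes are given here for comparison, and that library lacked any count for 15.4% of all genes that passed the filter. A count was found for 43, 44 and 31 of the genes in LPC day 10 replicates 1, 2 and 3, and for 45, 36 and 44 in LPC day 3 replicates 1, 2 and 3. Expected after thinning to the smallest library total, the numbers were 42.9, 43.8 and 31 at day 10 and 45, 35.6 and 44.0 at day 3. A gene at 0 in LPC day 10 replicate 3 may still have stood at up to 0.807 CPM (3 counts), and one at 0 in LPC day 3 replicate 2 at up to 0.427 CPM.

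Between day 10 and day 3, no mitotic gene was called in either direction. In edgeR's quasi-likelihood test with Benjamini-Hochberg adjustment over all 10535 genes, 0 of the 43 that passed the filter had an adjusted p under 0.05, with a lowest adjusted p of 0.524 for Birc5. Over all genes tested, 0% were called lower and 0.114% higher. At an unadjusted p under 0.05, 3 mitotic genes were lower at day 10 (Birc5, Kif23 and Mki67) and 0 were higher, against 1.38% of all genes lower and 4.76% higher. Most values had the same sign: 40 of the 43 were negative against 50.1% of all genes tested, and their median log2 fold change was −1.69 against −0.0023 over all genes. These 43 were kept by a filter that a high level in 1 group is enough to pass, and the genes share the same 6 libraries. DESeq2 called Birc5 lower (log2 fold change −5.54, DESeq2 adjusted p = 0.0212) with 0.171% of all genes called lower. It gave no adjusted p for 10 of the 43, Kif20a among them, so these could not be called. Limma-voom called 0 mitotic genes with or without sample quality weights (0.00949% of all genes lower in each).

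Single libraries moved these numbers. Leaving out LPC day 10 replicate 2 gave a median of −3.22 and a call for Mki67 (log2 fold change −3.66, edgeR adjusted p = 0.0201), where 0.0355% of all genes were called lower. The median was −1.21 without LPC day 10 replicate 3, with 38 of 44 negative and 0 called. It was −2.28 without LPC day 3 replicate 2, with 42 of 44 negative and 0 called (0.0169% of all genes lower). Leaving out LPC day 10 replicate 1 or LPC day 3 replicate 1 also gave 0 calls, with 0.0263% and 0.00876% of all genes lower, and so did leaving out LPC day 3 replicate 3. At an unadjusted edgeR p under 0.05, 10 of 44 were lower without LPC day 10 replicate 2 (1.95% of all genes) and 4 of 44 without LPC day 3 replicate 2 (1.44%). Without LPC day 10 replicate 1, LPC day 10 replicate 3 or LPC day 3 replicate 1 there were 2 each (2.02%, 2.42% and 1.52%), and without LPC day 3 replicate 3 there were 0 (1.04%).

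**Figure D2:**
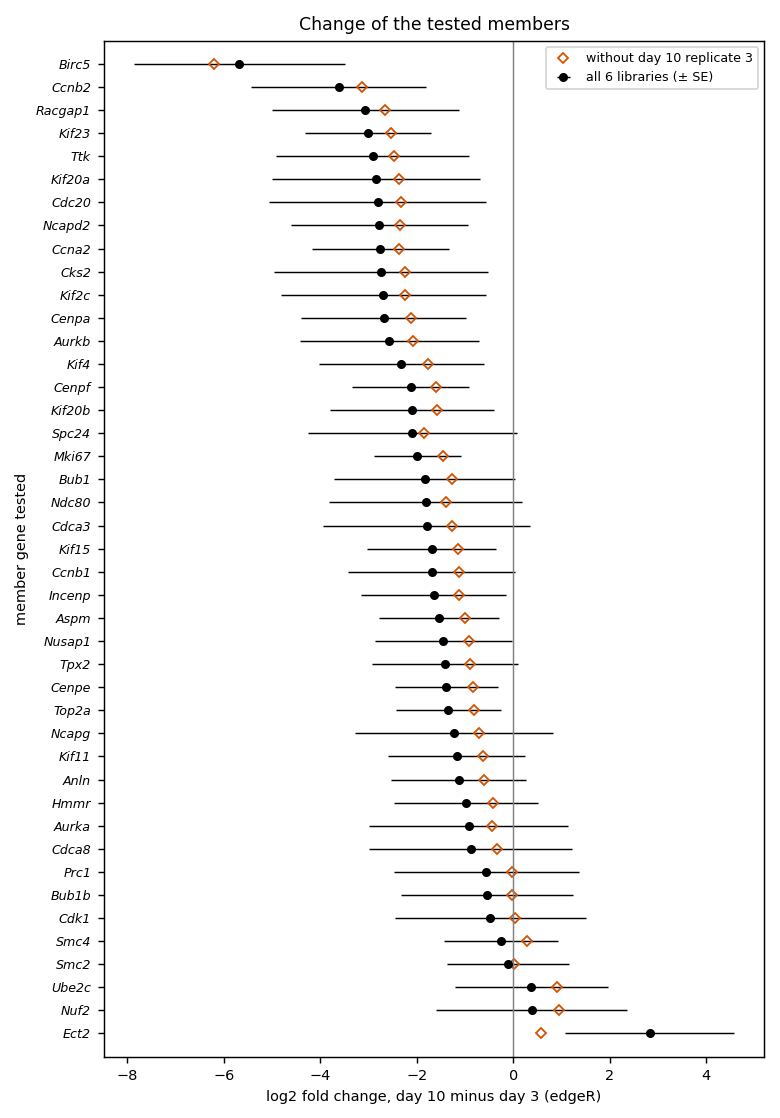
Log2 fold change of the 43 tested mitotic genes, day 10 minus day 3, from edgeR. Black points with bars are the values with all 6 libraries ± SE, and open diamonds are the values without LPC day 10 replicate 3. Of the points 40 lie left of 0, most bars are wide (median SE 1.75), and Ect2 moves from 2.83 to 0.57 when that library is left out.

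Groups that do not overlap are a plainer measure. In 7 of the 43 tested genes, Ccna2, Aurkb, Birc5, Cenpe, Cenpf, Ttk and Kif20a, every day 10 library lay below every day 3 library, and in 0 the reverse held. Over all genes tested, 4.97% lay wholly below and 3.47% wholly above. The count was 6 with library-size scaling (432 of all 10535 genes tested) and 6 with the FPKM values (436 of 10535). It was 15 of 44 without LPC day 10 replicate 2 (11.4% of all genes) and 28 of 44 without LPC day 3 replicate 2 (10.3%). It was 7 of 44 without LPC day 10 replicate 3 (7.89%), 9 without LPC day 10 replicate 1 (11.3%), 6 of 41 without LPC day 3 replicate 1 (9.32%) and 10 of 42 without LPC day 3 replicate 3 (9.53%). The authors' deposited table of fold changes lists 8 of the 43 at an unadjusted p under 0.05 with a lower level at day 10 and 0 with a higher one, against 3.01% of all genes tested here that were lower. Its smallest p among these genes, 0.00131, is that of Birc5.

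What the genes share outside their protein function was read from their promoters. Many mitotic promoters are known to carry a cell cycle genes homology region (CHR), the element through which the MuvB complex represses them in resting cells and, with B-MYB and FOXM1, activates them in G2, together with CCAAT boxes for the factor NF-Y. RefSeq windows on GRCm38.p6, from 250 bases before to 50 after the start of transcription, were found for 38 of the 45 genes, in 40 windows. The CHR was searched as TTTGAA or TTCGAA and the CCAAT box as CCAAT, each on both strands. A CHR was present in 85% of the members' windows against 19.2% of all 32851 windows. Within 100 bases before and 50 after the start, the shares were 80% and 8.59%. At least 2 CCAAT boxes were found in 55% against 11.7%, and 2 CCAAT boxes with a CHR near the start in 47.5% against 1.09%. A CHR overlapped a CCAAT box in 1 of the members' windows. A match of letters is a description and does not show binding, and Ccna2, Tpx2, Aurkb, Incenp, Spc24, Smc4 and Kif20a had no window.

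Of the 34 windows of these genes with a CHR, the last CHR lay before the start in 12 and after it in 22. Only bases before the start are printed, so promoters of 4 genes are shown as examples of the first kind, and that of Birc5 because it had the most negative fold change. Each is the 120 bases that end just before the start, read on the strand of the gene, with CHR and CCAAT matches of either strand in capitals. Cdc20 is at chr4:118437344-118437463 (minus strand), Ube2c at chr2:164769809-164769928 (plus), Top2a at chr11:99024190-99024309 (minus), Kif11 at chr19:37376262-37376381 (plus) and Birc5 at chr11:117849117-117849236 (plus).
Cdc20: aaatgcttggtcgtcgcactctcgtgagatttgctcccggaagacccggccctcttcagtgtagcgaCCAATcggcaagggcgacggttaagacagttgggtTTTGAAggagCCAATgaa
Ube2c: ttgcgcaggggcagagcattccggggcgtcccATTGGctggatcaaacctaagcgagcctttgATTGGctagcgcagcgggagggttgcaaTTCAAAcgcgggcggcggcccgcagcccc
Top2a: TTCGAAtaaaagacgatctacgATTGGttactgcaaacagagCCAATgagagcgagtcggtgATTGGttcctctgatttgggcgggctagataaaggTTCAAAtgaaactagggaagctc
Kif11: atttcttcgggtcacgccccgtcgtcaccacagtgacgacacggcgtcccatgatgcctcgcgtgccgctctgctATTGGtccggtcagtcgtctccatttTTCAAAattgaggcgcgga
Birc5: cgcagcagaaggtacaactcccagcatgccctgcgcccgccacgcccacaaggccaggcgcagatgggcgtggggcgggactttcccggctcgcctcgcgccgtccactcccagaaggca
The CHR lay 18 bases before the start in Cdc20, 29 in Ube2c, 23 in Top2a and 19 in Kif11, counted at its first base, each with a CCAAT box farther upstream. The letters searched for are not in the Birc5 window.

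**Figure D3:**
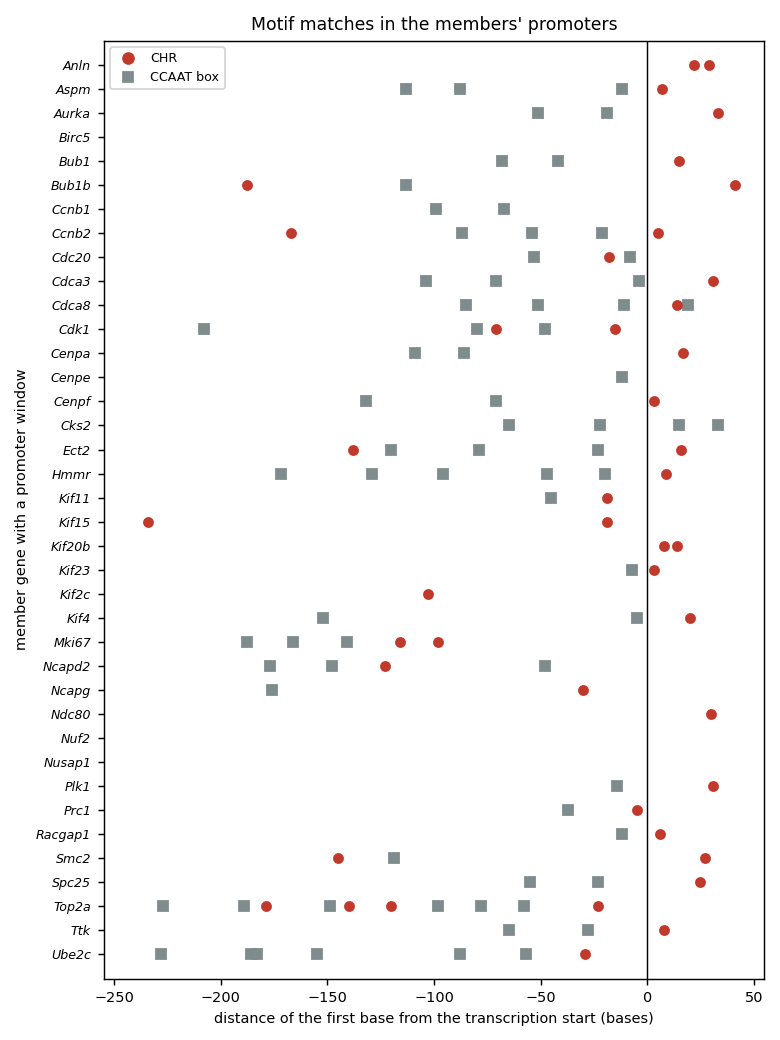
Matches to the CHR (red circles) and the CCAAT box (grey squares) in the RefSeq promoter windows of 38 mitotic genes, 1 window per gene. The horizontal axis is the distance of the first base of a match from the transcription start, in bases. CHR matches gather close to the start, with CCAAT boxes mostly upstream of them.

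Cyclins and the proteins that switch on Cdk1 come first in the order of mitosis. Ccna2, the cyclin of S phase and early mitosis, had 0.837, 17.9 and 2.42 CPM in replicates 1, 2 and 3 of LPC day 10, against 47.6, 25.2 and 70.8 CPM in replicates 1, 2 and 3 of LPC day 3. All day 10 libraries lay below all day 3 libraries (log2 fold change −2.76 ± 1.42, SE, with an edgeR adjusted p of 0.846). Of the exon bases of Ccna2, 12.5% overlap those of Exosc9 on the opposite strand, and no source used here says whether counting used strand. Ccnb2, a B-type cyclin, had 1.05, 5.17 and 0.269 CPM on day 10 and 33.0, 0.854 and 47.5 CPM on day 3. Its groups overlapped through LPC day 3 replicate 2 alone (log2 fold change −3.62 ± 1.81). Ccnb1, the main partner of Cdk1, had 0.314, 20.3 and 0 CPM on day 10 and 33.4, 20.8 and 12.8 CPM on day 3, where LPC day 10 replicate 2 reached into the day 3 range. Cdk1 itself was low throughout, at 0.269 to 6.18 CPM on day 10 and 1.33 to 11.4 CPM on day 3. Its log2 fold change was −0.47, and 0.035 without LPC day 10 replicate 3. The small Cdk-binding protein gene Cks2 and Cdca3, an adaptor for destruction of a Cdk1 inhibitor, stood at or below 1.83 CPM on day 10 and at 0 to 8.81 CPM on day 3, both at 0 in LPC day 3 replicate 2. All 6 genes of the group had negative fold changes (median −2.27), and 5 of 6 without LPC day 10 replicate 3.

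The kinases that drive mitosis and their activator were low in LPC day 3 replicate 2. Plk1, the polo kinase, had 0.105, 0.215 and 0 CPM on day 10 against 9.63, 0 and 1.69 CPM on day 3. It did not pass the filter on low counts, and most of its 112 counts at day 3 came from LPC day 3 replicate 1. The ratio of its summed counts put day 10 at 33.0-fold below day 3 with a 95% interval of 11.0 to 162.6 (exact binomial, counting error only, which leaves out the spread between mice). Such intervals were taken only for genes with at most 3 counts in every day 10 library, so they are not evidence of a drop. Aurka, the centrosomal aurora kinase, had 4.40, 2.37 and 0.269 CPM on day 10 and 8.15, 0 and 5.31 CPM on day 3. Tpx2, which activates Aurka on the spindle, had 5.97, 28.0 and 1.34 CPM on day 10 and 63.9, 0.996 and 29.8 CPM on day 3. Both genes were at their lowest in LPC day 3 replicate 2, so their groups overlapped (log2 fold changes −0.92 ± 2.06 and −1.42 ± 1.51).

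The chromosomal passenger complex corrects faulty attachments and directs cytokinesis. Its scaffold and targeting subunits and its kinase were all lower on average at day 10. Birc5, which encodes survivin (ENSMUSG00000017716, GRCm38 chromosome 11, 117849251 to 117855743), had 0.209, 0.215 and 0.538 CPM on day 10 against 7.96, 6.26 and 35.1 CPM on day 3. The groups were far apart: 6 counts at day 10 in all against 416 at day 3. Its log2 fold change was −5.68 ± 2.19, the most negative of the 43 genes, with an edgeR adjusted p of 0.524 and an unadjusted p of 0.0133 from the same edgeR fit. The ratio of summed counts put day 10 at 61.4-fold below day 3, with a 95% interval of 28.0 to 168.2 for counting error only. As for Plk1, that interval was taken because the day 10 counts were low, so it is not evidence of a drop. Across the libraries left out in turn, the log2 fold change ran from −6.21 to −4.42. Aurkb, the kinase of the complex, had 2.72, 4.84 and 0.269 CPM on day 10 and 29.6, 8.97 and 8.69 CPM on day 3, again with no overlap (log2 fold change −2.57 ± 1.85, edgeR adjusted p = 0.999). Incenp, the scaffold, had 25.5, 7.10 and 0.269 CPM on day 10 and 26.7, 3.27 and 74.1 CPM on day 3, and its groups overlapped. Cdca8, which encodes borealin, ranged from 0 to 2.37 CPM on day 10 and from 0 to 5.21 CPM on day 3.

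Of the centromere and kinetochore genes, Cenpe and Cenpf had groups that did not overlap in TMM-scaled CPM. Cenpe, a kinesin that carries chromosomes to the spindle equator, had 38.6, 90.2 and 1.34 CPM on day 10 against 96.3, 144.9 and 99.9 CPM on day 3. Cenpf, a large kinetochore protein of G2 and mitosis, had 8.90, 43.9 and 1.34 CPM on day 10 against 73.5, 47.7 and 115.7 CPM on day 3. The lowest day 3 library lay just above LPC day 10 replicate 2 in both genes, and LPC day 3 replicate 2 was the highest library for Cenpe and the lowest of day 3 for Cenpf. Cenpe overlapped in the authors' deposited FPKM values, which reached 10.78 on day 10 and started at 10.43 on day 3. The log2 fold changes were −1.39 ± 1.07 for Cenpe and −2.12 ± 1.21 for Cenpf, with edgeR adjusted p of 0.999 and 0.922. Cenpa, the histone H3 variant that marks centromeres, had 2.51, 12.9 and 0 CPM on day 10 and 17.1, 0.427 and 82.5 CPM on day 3, with LPC day 3 replicate 2 below LPC day 10 replicates 1 and 2. The 4 subunits of the Ndc80 complex, which binds microtubules, did not move as a unit. Ndc80 and Spc24 had log2 fold changes of −1.82 and −2.09, each led by LPC day 3 replicate 3 (21.4 and 10.9 CPM, against at most 4.95 CPM elsewhere). Nuf2 had 0.38, and peaked in LPC day 10 replicate 2 at 20.0 CPM. Spc25 had 61 counts in LPC day 3 replicate 1, 6 in LPC day 10 replicate 2 and 0 elsewhere, and was not tested.

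Of the spindle checkpoint genes, Ttk stood apart from its partners. Ttk, the kinase that starts the checkpoint, had 0.733, 3.12 and 0.269 CPM on day 10 against 6.97, 15.5 and 9.41 CPM on day 3, with no overlap (log2 fold change −2.92 ± 2.00, edgeR adjusted p = 0.999). Its highest level was in LPC day 3 replicate 2. Bub1, a kinase of the kinetochore, had 1.67, 11.1 and 0 CPM on day 10 and 35.1, 1.42 and 9.53 CPM on day 3. Bub1b, which encodes the checkpoint protein BubR1, had 2.30, 22.8 and 0.807 CPM on day 10 and 17.0, 0.142 and 20.7 CPM on day 3. In these 2 genes LPC day 3 replicate 2 was among the 2 lowest libraries and LPC day 10 replicate 2 was within or above the day 3 range.

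The partners of the anaphase-promoting complex differed from each other. Cdc20, its mitotic activator, had 1.57, 0 and 0 CPM on day 10 and 2.75, 0.142 and 8.81 CPM on day 3 (log2 fold change −2.81 ± 2.25). Ube2c, its ubiquitin-conjugating enzyme, had 45.7, 14.5 and 0.538 CPM on day 10 and 24.4, 0.285 and 22.3 CPM on day 3. LPC day 10 replicate 1 had the highest Ube2c level of all libraries, and the log2 fold change was 0.37 ± 1.59. It was −1.05 without LPC day 10 replicate 1 and −0.23 without LPC day 3 replicate 2. Of the exon bases of Ube2c, 22.8% overlap those of Tnnc2 on the opposite strand.

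Among the genes of chromosome structure, Mki67, which encodes the coat protein of mitotic chromosomes, was the most abundant of all 45. It had 122.9, 505.2 and 13.2 CPM on day 10 and 1244, 122.5 and 1180 CPM on day 3, with the 2 high day 3 libraries above all day 10 libraries and LPC day 3 replicate 2 level with LPC day 10 replicate 1. Top2a, the topoisomerase that untangles sister chromatids, had 15.6, 142.4 and 3.23 CPM on day 10 and 125.5, 23.9 and 260.6 CPM on day 3 (log2 fold change −1.34 ± 1.08). The condensin ATPases Smc2 and Smc4 had the fold changes closest to 0, at −0.11 and −0.26, and both were positive (0.0081 and 0.27) without LPC day 10 replicate 3. The log2 fold change of Smc2 was also positive with RLE scaling (0.060). Smc2 had 4.08, 63.1 and 24.5 CPM on day 10 and 17.98, 22.2 and 58.9 CPM on day 3, and Smc4 was highest in LPC day 10 replicate 2 at 104.0 CPM. The regulatory condensin subunit Ncapd2 had 0, 8.83 and 0.807 CPM on day 10 and 36.1, 23.9 and 6.63 CPM on day 3, so its groups overlapped through LPC day 10 replicate 2 and LPC day 3 replicate 3. Ncapg, another subunit, stayed at or below 3.93 CPM in all libraries.

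**Figure D4:**
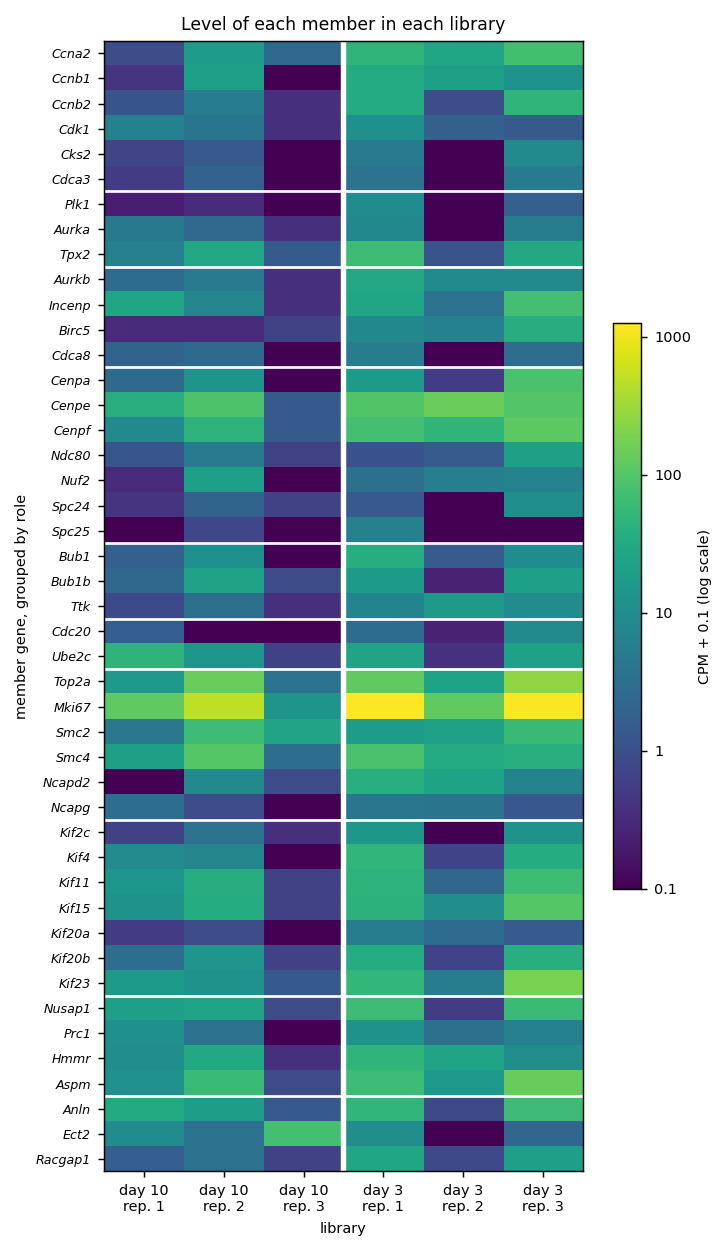
Level of each of the 45 mitotic genes (rows, grouped by role between white lines) in each library (columns, LPC day 10 left of the white bar, LPC day 3 right). Colour is CPM plus 0.1 on a log scale. LPC day 3 replicates 1 and 3 are bright for most rows, LPC day 10 replicate 3 is dark for most, and LPC day 3 replicate 2 is mixed, with Cenpe at 144.9 CPM and Nusap1 at 0.427 CPM.

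All 7 kinesins had negative fold changes, with a median of −2.32 (−1.77 without LPC day 10 replicate 3). Kif11, which pushes spindle poles apart, had 14.2, 35.1 and 0.538 CPM on day 10 and 44.7, 2.13 and 66.2 CPM on day 3. Kif23, a motor of the midzone that is part of centralspindlin, had 16.6, 11.9 and 1.34 CPM on day 10 and 51.7, 5.12 and 185.9 CPM on day 3. In both genes LPC day 3 replicate 2 lay inside the day 10 range, and LPC day 3 replicates 1 and 3 lay above it. The log2 fold change of Kif23 was −3.01 ± 1.31 (edgeR adjusted p = 0.669, unadjusted p = 0.0271). Kif2c, which takes microtubules apart at kinetochores, had 0.523, 3.23 and 0.269 CPM on day 10 and 14.6, 0 and 11.9 CPM on day 3. Kif20a, a motor of cytokinesis, had 0.419, 0.753 and 0 CPM on day 10 and 5.11, 2.56 and 1.45 CPM on day 3, with no overlap at levels of at most 7 counts at day 10. Its exons share 29.3% of their bases with Cdc23 on the opposite strand. Kif4, Kif15 and Kif20b had log2 fold changes of −2.32, −1.69 and −2.10, each highest in LPC day 3 replicate 1 or 3.

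Among spindle-associated proteins and the cytokinesis genes, Nusap1, Aspm, Anln and Racgap1 were highest in LPC day 3 replicates 1 and 3. Nusap1, which bundles spindle microtubules, had 20.7, 24.1 and 0.807 CPM on day 10 and 63.1, 0.427 and 61.5 CPM on day 3. Aspm, a spindle pole protein, had 11.8, 62.9 and 0.807 CPM on day 10 and 64.7, 14.9 and 140.8 CPM on day 3. Anln, which encodes the contractile ring protein anillin, had 31.7, 19.4 and 1.34 CPM on day 10 and 49.4, 0.712 and 65.0 CPM on day 3. In each of the 3 genes LPC day 3 replicate 2 lay within or below the day 10 range. Prc1, which bundles midzone microtubules, had 11.2, 3.44 and 0 CPM on day 10 and 12.5, 3.13 and 6.15 CPM on day 3 (log2 fold change −0.56). Hmmr, a spindle protein, had 10.6, 30.8 and 0.269 CPM on day 10 and 47.2, 24.8 and 10.5 CPM on day 3 (log2 fold change −0.98). Both were highest in LPC day 3 replicate 1, with a day 10 library next. Racgap1, the partner of Kif23 in centralspindlin, had 1.57, 3.34 and 0.538 CPM on day 10 and 25.4, 0.712 and 20.3 CPM on day 3 (log2 fold change −3.07 ± 1.94).

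Of the 43 tested genes, only Nuf2, Ube2c and Ect2, an exchange factor needed for the contractile ring, had positive log2 fold changes. Ect2 had 9.21, 3.23 and 75.6 CPM on day 10 and 10.1, 0 and 2.17 CPM on day 3. LPC day 10 replicate 3, the lowest library for 30 of the genes, had the highest Ect2 level and 281 of the 514 counts that it held for all 45. The log2 fold change was 2.83 ± 1.75 (edgeR adjusted p = 0.967), the highest of the 43, and 0.57 without that library. It was 4.77 without LPC day 3 replicate 1 (edgeR unadjusted p = 0.0404, adjusted p = 0.759), and the day 10 libraries then all lay above the remaining day 3 libraries. Of all 11422 genes tested without LPC day 3 replicate 1, 884 lay wholly above, and 564 were higher at an unadjusted edgeR p under 0.05.

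Levels of different genes can be compared only per length, for which the authors' deposited FPKM values were used, fragments scaled to gene length and library size. Its columns name the time point and not the mouse. Mki67 led with 23.4 ± 25.9 FPKM at day 10 and 85.4 ± 65.5 FPKM at day 3 (SD, n = 3 each). Ube2c followed at day 10 with 10.4 ± 13.2 FPKM, against 6.11 ± 5.38 FPKM at day 3, and Smc4 with 8.93 ± 10.4 FPKM against 10.2 ± 6.36 FPKM. At day 3 the next genes after Mki67 were Ccnb2 with 17.5 ± 14.8 FPKM, Top2a with 14.8 ± 11.7 FPKM and Cenpe with 13.3 ± 3.28 FPKM, against 1.52 ± 1.75, 6.33 ± 8.68 and 5.78 ± 5.37 FPKM at day 10. The SD of Mki67, Ccnb2 and Top2a was close to the mean, and neighbours in this order below Mki67 lay within 1 SD of each other.

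LPC day 3 replicate 2 was uneven from gene to gene. The following counts were chosen after the values were seen. Of 32 mitotic genes with at least 5 CPM in both other day 3 libraries, 14 (43.8%) lay in LPC day 3 replicate 2 under 0.1 times the lower of the other two. Among all 6201 tested genes of that level the share was 5.89%. At the same time 12 of the 32 (37.5%) reached at least 0.5 times that level, against 79.1% of all. Those 12 were Aurkb, Birc5, Ccna2, Ccnb1, Cenpe, Cenpf, Hmmr, Ncapd2, Prc1, Smc2, Smc4 and Ttk. They include 6 of the 7 genes whose groups did not overlap, a pattern that a gene near 0 in this library cannot show. In LPC day 10 replicate 3, 10 of 16 such genes (62.5%) lay under 0.1 times the lower of its companions, against 27.9% of all tested genes of that level.

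Other genes of the mitotic programme were read from lists that hold none of the 45. In edgeR, 0 genes of the 8 lists were called at an adjusted p under 0.05. The G2 and mitotic entry list had 12 of 14 tested genes negative and a median log2 fold change of −1.58, which was −0.89 without LPC day 10 replicate 3. Its Foxm1, the transcription factor that activates mitotic genes, had 8.16, 9.15 and 0.807 CPM on day 10 against 63.0, 35.9 and 166.5 CPM on day 3, with no overlap (log2 fold change −3.86 ± 1.29, edgeR adjusted p = 0.337, unadjusted p = 0.00476). Lin9, a MuvB subunit, had the smallest p among the higher genes of that list (log2 fold change 2.03 ± 1.18). Its level was 376.5 CPM in LPC day 10 replicate 3, and its log2 fold change was −0.89 without that library. In the list of other kinesins, spindle and cytokinesis genes, 16 of 21 were negative (median −1.86, and −1.47 without that library). Its Kpna2, an importin that carries spindle factors, had 2.41, 15.0 and 0.538 CPM on day 10 and 171.1, 3.56 and 91.6 CPM on day 3 (log2 fold change −3.88 ± 1.39, edgeR adjusted p = 0.429), the same pattern of 2 high libraries. Gtse1, a microtubule-binding protein, had the smallest p among its higher genes (log2 fold change 1.39 ± 2.11).

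Other centromere, kinetochore and checkpoint genes had 15 of 23 negative (median −0.94, and −0.42 without LPC day 10 replicate 3). Hjurp, the chaperone that loads Cenpa, had 26.0, 15.1 and 4.03 CPM on day 10 against 86.1, 111.7 and 91.6 CPM on day 3, all 3 day 3 libraries close together and none overlapping day 10 (log2 fold change −2.68 ± 1.14, edgeR adjusted p = 0.633). Cenpl, a centromere protein, had the smallest p among the higher genes (log2 fold change 3.09 ± 1.77, and 0.76 without that library). The anaphase-promoting complex list had 10 of 17 negative with a median of −0.046, and 7 of 17 with 0.18 without that library. Its smallest p among lower genes was that of Ube2s, an enzyme that extends ubiquitin chains for the complex (log2 fold change −4.32 ± 1.94), and among higher genes that of the subunit gene Cdc27 (0.88 ± 0.93, and −1.13 without that library). Cohesin genes had 9 of 16 negative (median −0.43), and 14 of 16 without that library (median −0.63). Pds5b, a regulator of cohesin release, had the smallest p of the lower cohesin genes (log2 fold change −2.16 ± 1.07), and Esco1, a cohesin acetyltransferase, that of the higher ones (1.73 ± 1.14, and −0.71 without that library). Of the other condensin subunits 2 of 4 were negative (median −0.31, and 0.22 without that library), with Ncaph at −0.84 and Ncaph2 at 1.34. The differences between lists were not tested.

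The S phase list had 18 of 22 negative and a median of −0.63, and 17 of 22 with −0.27 without LPC day 10 replicate 3. Rrm2, the regulated subunit of ribonucleotide reductase, had 0.837, 4.41 and 1.08 CPM on day 10 and 28.1, 3.84 and 68.6 CPM on day 3 (log2 fold change −3.97 ± 1.70, edgeR adjusted p = 0.648), again with 2 high libraries. Slbp, the histone mRNA binding protein gene, had 545.1 CPM in LPC day 10 replicate 3 and at most 14.4 CPM elsewhere (log2 fold change 4.36, and −0.27 without that library). Of G1 cyclins and cell cycle inhibitors 10 of 15 were negative (median −0.76, and −0.32 without that library). Cdkn2c, a Cdk inhibitor, had the smallest p of the lower ones (log2 fold change −2.99 ± 1.95). Ccnd1, a G1 cyclin, had 31.9, 9.47 and 481.9 CPM on day 10 and 17.98, 6.12 and 5.55 CPM on day 3 (log2 fold change 4.14 ± 1.21, edgeR adjusted p = 0.21), with 1.03 ± 1.42 without LPC day 10 replicate 3.

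Markers of other cells that can divide or that the gate could admit were read in the same libraries. Neutrophil genes summed to 0, 0.108 and 0.269 CPM on day 10 and to 0, 0.142 and 79.0 CPM on day 3, with S100a8 at 55.01 CPM in LPC day 3 replicate 3. Border-associated macrophage genes summed to 5.97, 5.49 and 6.19 CPM on day 10 against 23.4, 93.4 and 89.9 CPM on day 3, led by Mrc1. Of the other genes of that list, Cbr2 had 13.99 CPM in LPC day 3 replicate 3 and at most 0.142 CPM elsewhere, and Pf4 and Cd163 stood at most at 3.44 CPM. Monocyte genes summed to 198.0, 75.0 and 20.98 CPM on day 10 and to 110.0, 13.7 and 159.8 CPM on day 3, led by Fn1, with Ccr2 at most at 5.597 CPM and Chil3 at 17.97 CPM in LPC day 3 replicate 3 and 0 elsewhere. The part of neutrophils, border-associated macrophages and monocytes in the mitotic genes was not tested. The progenitor genes Pdgfra, Sox10, Olig1 and Olig2 and the neuroblast genes Dcx and Sox11 had 0 counts in all libraries. B cell genes (2 of 4 counted) summed to 12.98, 0.108 and 1.88 CPM on day 10 and to 30.4, 0.142 and 5.31 CPM on day 3, and their part was not tested. Among the same lists, Nes had 73.7 CPM in LPC day 3 replicate 1 and Cspg4 104.2 CPM in LPC day 10 replicate 1.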

How the data were processed

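The 45 genes, the other lists and the tests were chosen with earlier results of these data known. The submitters' processing notes name the GRCm38 genome, STAR 2.5.2a, limma 3.30.8 and edgeR 3.16.5 under R 3.3.2. How reads were counted, on which annotation and by which strand, is not stated there. The authors deposited raw counts per Ensembl gene, FPKM per gene, and, per gene, a log2 fold change with its unadjusted p-value. The authors' log2 values are headed day 3 against day 10, and correlated across genes with r = −0.862 with the day 10 minus day 3 values computed here. Their normalized table was not used.

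Symbols came from the FPKM table, and positions and exon overlaps from GENCODE M21 (GRCm38), in which all 45 genes were found. Exons of 10 of them overlap a gene on the opposite strand.

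In R 4.3.3, genes were kept by filterByExpr (minimum count 10), scaled by TMM and tested by the quasi-likelihood F-test of edgeR 4.0.16 with group as the only term and Benjamini-Hochberg adjustment over all genes. Plk1 and Spc25 did not pass the filter. The biological coefficient of variation was 1.11. The SE was taken as the size of the log2 change over the root of its F value. Per-library values were given for genes with no overlap between groups, and for the 2 genes of highest mean FPKM and the first gene of each role. Others were named after their values were seen. From each other list the gene of smallest p in each direction was eligible. Alternatives used edgeR, DESeq2 1.42.0 and limma 3.58.1. Figures and intervals used Python 3.11.15 with scipy 1.17.1. Same-numbered libraries of the 2 groups were compared to see whether the numbers pair them.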

Additional observations from a re-analysis of the deposited data

How the results depend on the processing

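Of the 43 tested mitotic genes, 29 had a negative log2 fold change wherever they were tested, over 10 alternatives and the 6 libraries left out in turn. Among the 29, Cks2 did not pass the filter without LPC day 3 replicate 1 or without LPC day 3 replicate 3. Kif20a did not pass it without LPC day 3 replicate 1. The median log2 fold change of the 43 ran from −2.32 (replicate block) to −0.83 (voom with sample quality weights), and from −3.22 to −1.21 with a library left out. RLE scaling put the median of all genes at 0.13. No mitotic gene was called higher under any alternative. The number called lower, 0 with all libraries, was 1 with DESeq2 and 0 to 1 with a library left out. The number whose day 10 libraries all lay below day 3 was 6 to 28 with a library left out (7.89% to 11.4% of all genes). Over all genes, those called lower numbered 5 with no low-count filter, 1 with a filter of 1 CPM in 3 libraries, 18 with DESeq2, 1 with limma-voom and 1 with sample quality weights, and 0 to 4 with a library left out. Those called higher numbered 0 with RLE scaling, library-size scaling, limma-voom, the replicate block and either FPKM fit, 113 with no filter, 20 with the 1 CPM filter, 45 with DESeq2, 2 with sample quality weights, and 1 to 208 with a library left out.

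Deviations of libraries with the same replicate number in their titles correlated at 0.073, −0.035 and 0.0073. Those of differently numbered libraries correlated at −0.081 to 0.063. No pairing by number was visible, which does not show that there was none. With the replicate block, 0 mitotic genes were called, 0 genes were called higher and 0 lower over all genes, and the log2 fold change of Nuf2 turned to −3.05.

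Directions that turned were, with limma-voom, Aurka (0.20) and Nuf2 (−2.31). With sample quality weights they were Aurka (0.47), Cdca8 (0.52), Ndc80 (0.20), Nuf2 (−0.27), Spc24 (0.17), Bub1b (0.82), Nusap1 (0.22) and Anln (0.22). With FPKM plus 1 or plus 0.1, Nuf2 was −0.13 or −1.27, and with RLE scaling or DESeq2, Smc2 was 0.060 in each. With a library left out, the ranges that crossed 0 were −1.20 to 1.16 for Cdk1, −1.48 to 0.029 for Cdca8, −3.20 to 0.90 for Ndc80, −5.28 to 0.94 for Nuf2, −3.23 to 0.57 for Spc24, −3.01 to 0.048 for Bub1b, −1.05 to 0.91 for Ube2c, −1.22 to 0.64 for Smc2, −2.09 to 0.27 for Smc4 and −2.04 to 0.045 for Prc1. The cause of these turns was not tested. Each group had 3 libraries, and 40 of the 45 genes had counts under 10 in LPC day 10 replicate 3. With all 6 libraries, 0 of the 43 single fold changes were called different from 0 in edgeR.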
